A study of Mus musculus with 18 samples.

Results

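The Hist1 cluster of mouse chromosome 13 holds a large group of replication-dependent histone genes, and it was examined here by ATAC-seq, which counts cuts by a transposase in open chromatin. The members were every gene of the GENCODE M1 annotation (build mm9) whose name starts with Hist1h, 56 genes of 37310, and every peak that overlapped one of these genes extended by 5 kb on each side, 95 peaks of 194284. The cluster was chosen by the readout of one of its own peaks, which lies past the 3′ end of Hist1h4j and rose most with (+)-JQ1. The peak's rank was highest in LPS-stimulated cells, so LPS + (+)-JQ1 against LPS is treated here as the contrast of the choice. For this peak and its neighbors, (+)-JQ1 against Unstimulated is not independent of the choice either. That contrast, LPS + (+)-JQ1 against LPS, and the interaction of LPS and (+)-JQ1, which contains it, are therefore given as a description. Their calls are listed, and no conclusion is drawn from them. All 95 peaks passed the filter on low counts.

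The study cultured bone marrow-derived macrophages (BMDMs) of 3 male, 12-week-old Il10-/- mice on the C57BL/6J background. Cells were untreated or given 500 nM (+)-JQ1, an inhibitor of the BET bromodomain proteins, or 10 ng/mL IL-10 for 12 hours. LPS, a component of the bacterial outer membrane, was then added at 50 ng/mL for 4 hours, or not. The paper also names a vehicle for the 12 hours and describes the untreated cells without LPS as a further control. The sample titles call the LPS group untreated and name no vehicle. Comparisons with Unstimulated may therefore also differ by vehicle. The 6 groups (Unstimulated, (+)-JQ1, IL-10, LPS, LPS + (+)-JQ1 and LPS + IL-10) had 3 libraries each, numbered 1 to 3. The sources used here do not tie a number to an animal across groups. All groups lack Il10, so that IL-10 came only from the medium and no group shows the cells of a wild-type animal. Libraries held 12020526 to 25908198 counts in peaks, of which 0.0803% to 0.104% fell in Hist1 peaks. Start peaks were found for 7 of 8 macrophage marker genes (the symbol Spi1 is absent from the annotation), with a summed level of 69.7 to 162 CPM per kb (counts scaled by library size and peak length) over the libraries, and for none of the T cell markers Cd3e, Cd3d, Cd4 and Cd8a. Start peaks were listed for 2 of 3 B cell genes (summed 2.67 to 7.4), 1 of 4 neutrophil and progenitor genes (3.06 to 5.81), both dendritic cell genes (20.0 to 42.3, mostly Zbtb46) and 2 of 3 fibroblast genes (6.21 to 8.93). Accessibility came from whole cultures, so the share of cells with an open site and the openness in each cell cannot be told apart.

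Replication-dependent histone genes supply the histones that package newly made DNA, and they are transcribed in S phase. Their mRNAs lack a poly(A) tail and end instead in a short stem-loop, which the protein encoded by Slbp binds, and their transcription is gathered in a nuclear body organized by the protein encoded by Npat. Bone marrow-derived macrophages can divide in culture in response to CSF1, which the L929-conditioned medium used here supplies. The linker histone H1 sits on the DNA between nucleosomes, while H2A, H2B, H3 and H4 form the core of the nucleosome.

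By name the 56 genes are 6 H1, 15 H2A, 15 H2B, 9 H3 and 11 H4 genes, of which Hist1h2aj, an H2A gene, is annotated as a pseudogene. Of these, 24 lay in a first stretch of 327.9 kb, from Hist1h2bl to Hist1h2bj, with 38 of the peaks, and 31 in a second stretch of 403.8 kb, from Hist1h4h to Hist1h2aa, with 57 peaks. Hist1h2al lay alone, far from both, and had no peak. Peaks were numbered P01 to P95 along the chromosome. A total of 37 overlapped the start of a gene (1000 bases before to 100 after), 18 others a gene body and 30 others the 5 kb past a 3′ end, 6 lay before a start and 4 in the remaining flanks. The authors had classed 40 of the 95 as promoter and 55 as distal.

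The 3′ ends carry the sequence for which these genes are known. A histone stem-loop was found within 150 bases of the annotated end of 36 of the 56 Hist1 genes and of 0 of 22313 protein-coding genes not named Hist. Among the protein-coding Hist2h, Hist3h and Hist4h genes, which are also replication-dependent, it was found in 6 of 12. In Hist1h4j and Hist1h4b it differed from the form of Hist1h4k and 6 other H4 genes, while 21 genes of the other classes shared another form and 6 H2B and H3 genes one more. The first 3 forms are shown since they are the mark of the class, with the whole stem-loop in capitals.
Hist1h4j: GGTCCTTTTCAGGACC
Hist1h4k: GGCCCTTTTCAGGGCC
Hist1h3h: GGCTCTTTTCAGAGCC

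Promoters of the histone classes carried different motifs. In the window from 250 bases before the start to 50 after, on either strand, TATAAA (the TATA box) was found in 56.4% of 55 Hist1 protein-coding genes against 13.4% of 22380 protein-coding genes in all. CCAAT was found in 83.6% against 37.9%, in all H1, H2A and H2B windows, 8 of 9 H3 windows and 3 of 11 H4 windows. The octamer ATGCAAAT, which the protein encoded by Pou2f1 binds, was found in 20.0% against 1.7%, in 5 H2A and 6 H2B windows and none of the other classes. TTTNNCGC, an E2F-like site, was found in 38.2% against 6.1%. The AP-1 site TGANTCA was found in 5.5% against 6.9%, a kappaB-like motif in 1.8% against 1.6%, and a interferon-response-like motif in 1.8% against 3.8%. A match is only these letters in this window. The 250 bases before the start of 4 genes are printed below from the mm9 genome on the strand of the gene, with matches to these motifs in capitals. The printed Hist1h4j sequence has none. The print stops at the annotated start, while the counted window runs 50 bases further, so a match at or after the start is not shown. Hist1h4j and Hist1h4k flank the peaks that rose with (+)-JQ1, Hist1h4a had the strongest start peak of an H4 gene, and Hist1h2bb shows the TATA, CCAAT and octamer motifs of an H2B gene. The longest run shared by the Hist1h4j and Hist1h4k sequences was 66 bases.
Hist1h4j, chr13:21826653-21826902, plus strand: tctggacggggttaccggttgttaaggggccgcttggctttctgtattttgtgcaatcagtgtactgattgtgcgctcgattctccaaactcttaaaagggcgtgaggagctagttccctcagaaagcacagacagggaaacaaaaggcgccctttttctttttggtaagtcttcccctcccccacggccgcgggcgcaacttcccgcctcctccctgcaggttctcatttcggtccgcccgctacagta
Hist1h4k, chr13:21842375-21842624, minus strand: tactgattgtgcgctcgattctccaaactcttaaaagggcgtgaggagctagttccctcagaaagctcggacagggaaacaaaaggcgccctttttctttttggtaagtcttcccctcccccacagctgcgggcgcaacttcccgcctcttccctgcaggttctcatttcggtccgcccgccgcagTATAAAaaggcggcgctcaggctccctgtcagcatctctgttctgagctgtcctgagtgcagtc
Hist1h4a, chr13:23853100-23853349, minus strand: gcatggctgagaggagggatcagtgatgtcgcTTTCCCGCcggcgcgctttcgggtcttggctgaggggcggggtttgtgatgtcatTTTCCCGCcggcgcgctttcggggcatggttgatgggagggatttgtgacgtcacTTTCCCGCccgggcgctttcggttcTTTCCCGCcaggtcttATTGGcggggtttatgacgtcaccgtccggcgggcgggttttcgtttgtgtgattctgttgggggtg
Hist1h2bb, chr13:23838353-23838602, plus strand: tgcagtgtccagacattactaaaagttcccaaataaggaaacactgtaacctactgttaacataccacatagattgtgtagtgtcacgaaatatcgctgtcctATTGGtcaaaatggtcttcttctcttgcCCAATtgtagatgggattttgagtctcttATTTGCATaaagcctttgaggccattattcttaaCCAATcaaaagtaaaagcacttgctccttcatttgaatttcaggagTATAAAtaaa

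Start peaks were found for 40 of the 56 genes, and 12 of the 37 start peaks covered the starts of several genes, most often an H2A and H2B pair. Levels here are normalized counts (scaled by TMM), which are counts per peak and not per length, averaged over 18 libraries, for the strongest start peak of each gene. The H4 genes held a wide range, P91 of Hist1h4a with 810 (range 522 to 1069) and P77 of Hist1h4c with 44.2 (21.0 to 63.4). P70, shared by Hist1h2ac and Hist1h2bc, had 802 (483 to 967) and was the highest of both the H2A and the H2B genes, for which the lowest were P41 of Hist1h2af with 182 and P37 of Hist1h2bj with 356. Among H3 genes levels ran from 311 at P24 (Hist1h3i) to 663 at P04 (Hist1h3h), and among H1 genes from 23.4 at P80 (Hist1h1c) to 485 at P92 (Hist1h1a). P04 lies over Hist1h2bl and Hist1h2ai and before Hist1h3h, and P92 over Hist1h3a and before Hist1h1a, whose own start and body lie under P93 with 279. P77, P80 and P41 lie wholly before Hist1h4c, Hist1h1c and Hist1h2af and do not cover the start itself. Their low levels are thus those of upstream peaks. Levels between genes are not comparable where peak widths differ, which for start peaks ran from 505 to 2398 bases.

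No peak lay in the window of 6 genes, Hist1h2bq, Hist1h2ao, Hist1h4m, Hist1h2ba, Hist1h2aa and Hist1h2al. Reads were kept only where they mapped to a single place, and the share of 50-base words that are unique in the genome was 0% for the bodies of Hist1h2bq and Hist1h2ao and 10.2% for Hist1h4m. Hist1h4n, Hist1h2ap and Hist1h2br, with 7.1%, 0% and 0%, had a single window peak, P30, and none at the start. The absence of a peak at these genes is thus not a measure of closed chromatin. For the testis-expressed Hist1h2aa the share was 97.7%, and no peak was called. Hist1h1t, the testis-specific linker histone, had a start peak over the gene, P76, with a mean of 114 normalized counts, and a weaker one before it, P75, with 23.8. The unique share was 77.8% to 100% for H1 genes, with medians of 33% for H2A, 40.8% for H2B, 45.9% for H3 and 56.4% for H4 genes, so the body counts of core histone genes are incomplete.

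The peak that led to the choice, P12 (chr13:21831732-21834702, 2971 bases), lies in the 14.7 kb between Hist1h4j and Hist1h4k, which end toward each other and have no annotated gene between them. This interval holds 7 peaks, P10 to P16, and 97.5% of its 50-base words are unique, with 90.4% in P12, the lowest of the 7 peaks. Its GC content was 38.3% and its CpG content was 0.15 of that expected from its base composition, against medians of 46.9% and 0.6 at the start peaks of the cluster. The 51 other peaks not at a start had 40.5% and 0.2, so that this composition is not particular to the interval. The middle 300 bases of P12 are printed to show this AT-rich sequence, beside those of P53, a peak of 3000 bases across the 3′ end of the linker histone gene Hist1h1d, which had the largest rise outside the interval in the contrast of the choice. The 1 CCAAT match, in P12, is in capitals.
P12, chr13:21833068-21833367, plus strand: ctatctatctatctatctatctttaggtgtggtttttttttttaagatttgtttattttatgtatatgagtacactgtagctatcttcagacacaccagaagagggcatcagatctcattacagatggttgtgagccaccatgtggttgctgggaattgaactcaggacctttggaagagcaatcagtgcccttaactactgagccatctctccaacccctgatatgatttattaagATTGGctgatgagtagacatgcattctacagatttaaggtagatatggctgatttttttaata
P53, chr13:23651227-23651526, plus strand: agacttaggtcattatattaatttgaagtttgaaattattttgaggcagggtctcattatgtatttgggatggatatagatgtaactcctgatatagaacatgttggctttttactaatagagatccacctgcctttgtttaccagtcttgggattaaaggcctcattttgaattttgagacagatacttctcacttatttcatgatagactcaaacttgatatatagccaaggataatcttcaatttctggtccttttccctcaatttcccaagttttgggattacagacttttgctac

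P12 ranked first by log2 fold-change in LPS + (+)-JQ1 against LPS among the 72050 peaks with at least 50 mean normalized counts, and 5th among all 194230 tested peaks. Its normalized counts were 26.4, 23.2 and 26.6 in LPS (replicates 1, 2 and 3) and 124, 122 and 169 in LPS + (+)-JQ1, a log2 fold-change of 2.46 ± 0.22 (SE). Without LPS they were 41.0, 52.0 and 53.9 in Unstimulated and 170, 161 and 173 in (+)-JQ1. IL-10 alone gave 53.8, 42.4 and 76.7, and LPS + IL-10 gave 20.7, 31.2 and 22.1. Every (+)-JQ1 library was thus above every library without (+)-JQ1, whether or not LPS was added, and the LPS and LPS + IL-10 libraries were below every Unstimulated and IL-10 library.

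The rise was also present in cells that had not seen LPS, from the same 3 mice. The cluster was picked for a rise with (+)-JQ1, so the tests of P12 and its neighbors given here are not independent support. In (+)-JQ1 against Unstimulated, P12 rose by 1.77 ± 0.21 on the log2 scale (adjusted p = 1.2e-09, edgeR), and the same-number ratios were 2.06, 1.63 and 1.68. P12 ranked 3 of the 72050 peaks in this comparison. Its neighbors P13 (1.45 ± 0.23, adjusted p = 9.6e-07), P10 (1.14 ± 0.17, adjusted p = 6.2e-07) and P11 (0.89 ± 0.27, adjusted p = 0.014) rose as well. P14 had 0.56 ± 0.26 (adjusted p = 0.17) and P15 0.87 ± 0.35 (adjusted p = 0.094), and P16, nearest to Hist1h4k, did not share the direction, with same-number ratios of -0.46, -0.12 and -0.04. The value of P12 lay between 1.5 and 1.84 in every alternative, while P11 lost its call with scaling by total counts (0.6, adjusted p = 0.11) and without replicate 3 (0.61, adjusted p = 0.25).

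The start peak of Hist1h4j did not pass the test in either direction. P09, which covers this start and gene body, had 240, 317 and 332 normalized counts in Unstimulated and 334, 374 and 354 in (+)-JQ1, a log2 fold-change of 0.25 ± 0.14 (adjusted p = 0.27). It had 257, 272 and 237 in LPS, 296, 252 and 266 in LPS + (+)-JQ1, 468, 352 and 334 in IL-10 and 300, 314 and 276 in LPS + IL-10. LPS and LPS + (+)-JQ1 overlapped. P08, before the start of Hist1h4j, had 96.8, 59.1 and 62.0 in Unstimulated, 31.5, 50.0 and 44.3 in LPS and 69.7, 71.9 and 110 in LPS + (+)-JQ1. In (+)-JQ1 it had 91.8, 98.7 and 74.6, in IL-10 77.5, 51.4 and 60.1, and in LPS + IL-10 47.1, 36.5 and 60.5. P08 fell with LPS by 0.78 ± 0.24 on the log2 scale (adjusted p = 0.0083).

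The other peaks of the window past Hist1h4j also had higher counts with (+)-JQ1. P10 had 84.4, 83.6 and 78.2 in Unstimulated, 153, 187 and 203 in (+)-JQ1, 56.2, 50.9 and 55.4 in LPS and 149, 168 and 180 in LPS + (+)-JQ1. In IL-10 it had 103, 99.2 and 124, and in LPS + IL-10 78.2, 87.0 and 65.6. P11 had 43.4, 45.9 and 29.5 in Unstimulated, 77.4, 58.4 and 82.4 in (+)-JQ1, 18.7, 13 and 31 in LPS and 35.6, 71.9 and 88.4 in LPS + (+)-JQ1. In IL-10 it had 21.9, 36.1 and 40.1, and in LPS + IL-10 11.3, 20.4 and 11.1. For P10 the (+)-JQ1 groups did not overlap with any other group, while for P11 the first LPS + (+)-JQ1 library lay within the range of Unstimulated.

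**Figure D1:**
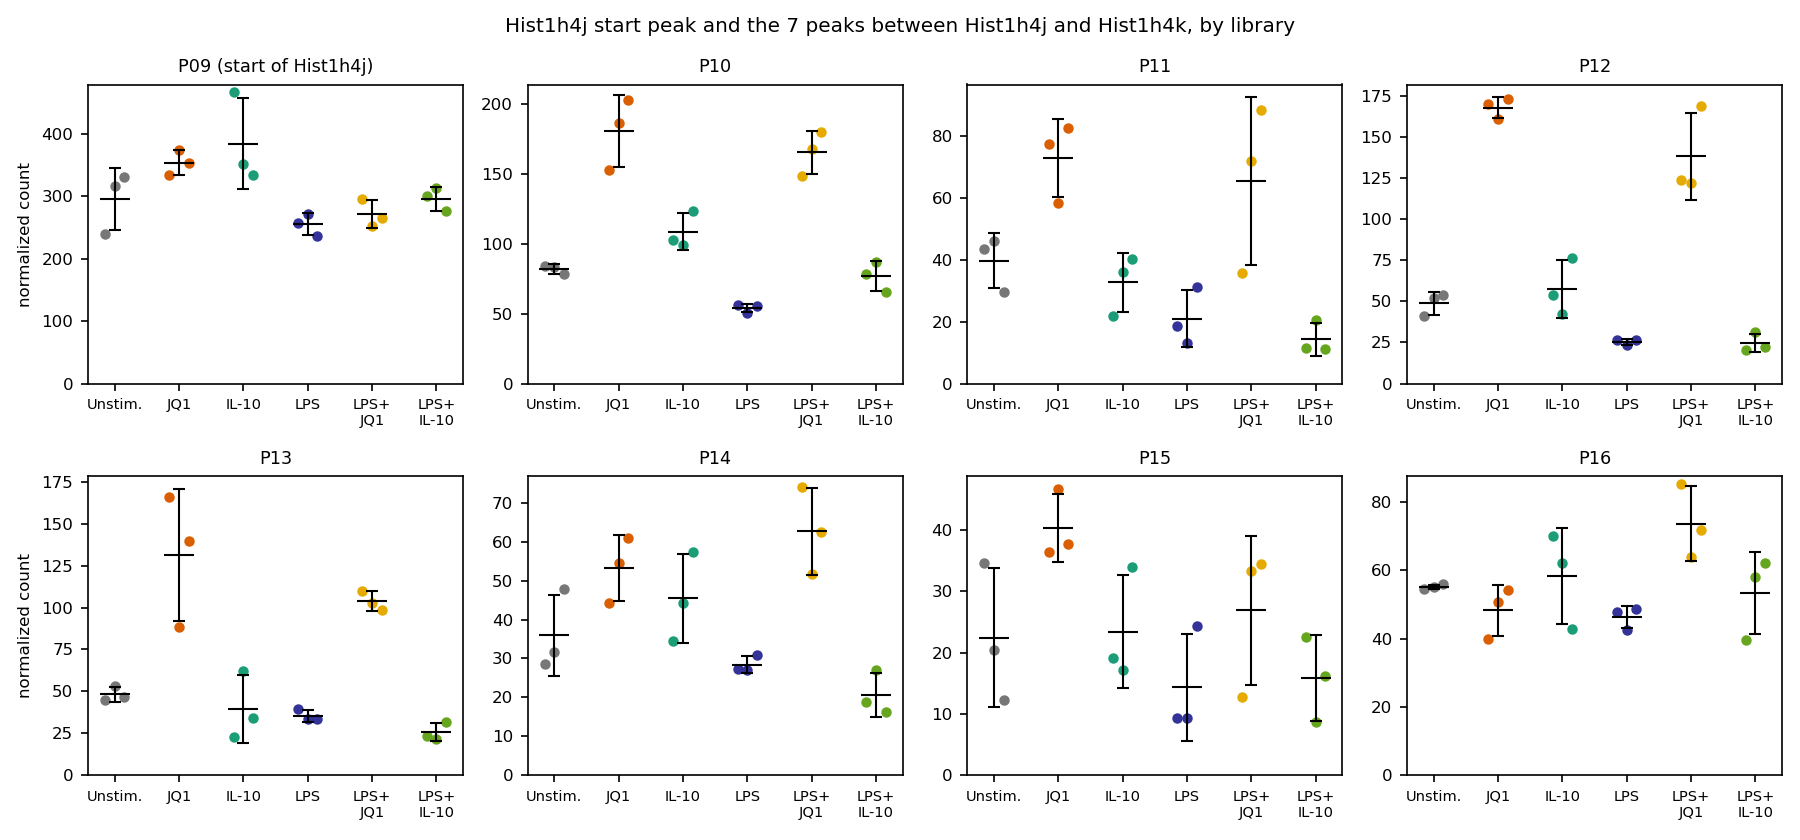
Normalized counts (vertical axis, from 0) of the Hist1h4j start peak P09 and the 7 peaks P10 to P16 between Hist1h4j and Hist1h4k in the 6 groups (horizontal axis). Points are libraries in the order of replicates 1, 2 and 3, and bars give the mean and SD (n = 3). P10, P12 and P13 have every (+)-JQ1 and LPS + (+)-JQ1 library above all others, and P09 does not.

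Summed over the 7 peaks of the interval, normalized counts were 332 ± 8.63 (SD, n = 3) in Unstimulated and 695 ± 52.2 in (+)-JQ1, 225 ± 25.6 in LPS and 637 ± 60.2 in LPS + (+)-JQ1, 366 ± 41.6 in IL-10 and 231 ± 20.1 in LPS + IL-10. Same-number log2 ratios of the sum were 1.05, 0.92 and 1.21 for (+)-JQ1 against Unstimulated, and each of these pairs shared a sequencing lane. In the comparisons that follow the second pair crossed lanes. The ratios were -0.56, -0.78 and -0.37 for LPS against Unstimulated and -0.6, -0.52 and -0.86 for LPS + IL-10 against IL-10. For LPS + (+)-JQ1 against (+)-JQ1 they were -0.22, -0.07 and -0.09, and those groups overlapped. No test was made of these sums, since the peaks were chosen with results known.

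**Figure D2:**
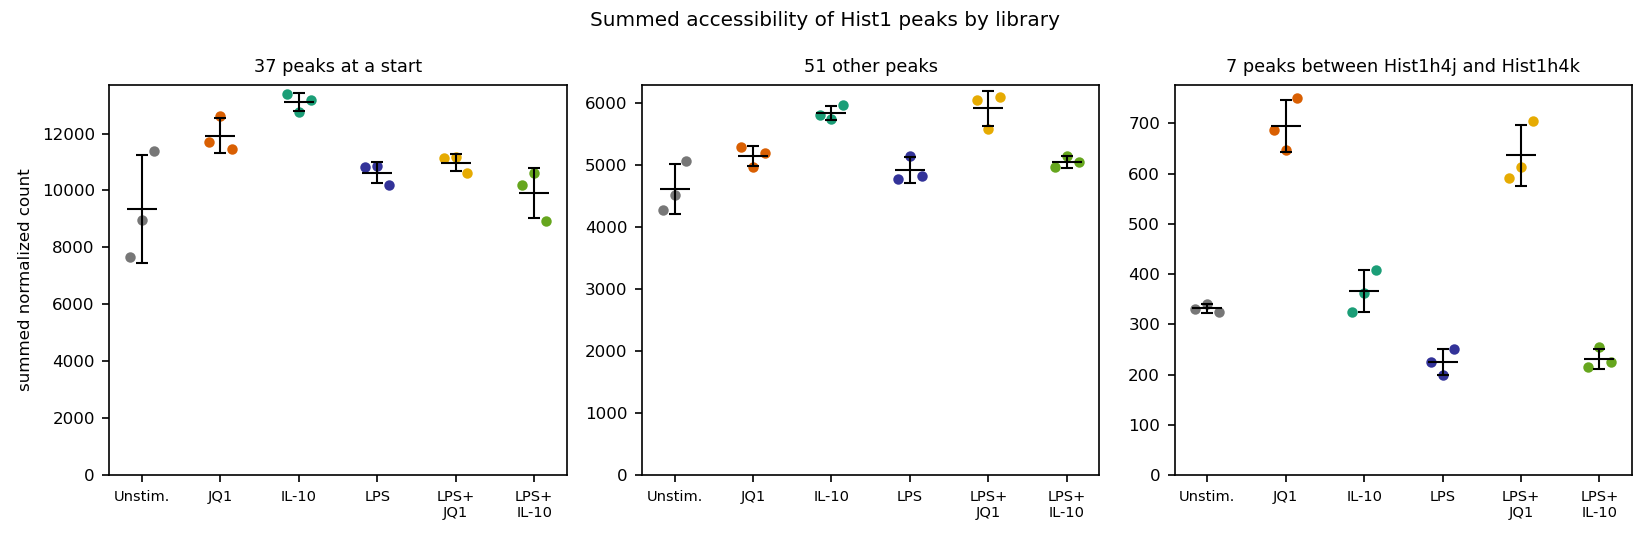
Summed normalized counts (vertical axes, from 0, of different scale) of 37 start peaks, 51 other peaks and the 7 peaks between Hist1h4j and Hist1h4k, by group (horizontal axis). Points are libraries in the order of replicates 1, 2 and 3, and bars give the mean and SD. The (+)-JQ1 and LPS + (+)-JQ1 libraries are apart from the rest in the interval, with means of 695 and 637, while the start peaks spread most in Unstimulated, from 7670 to 11400.

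In LPS + (+)-JQ1 against LPS, 18 Hist1 peaks were called higher and 1 lower, where a called peak had an adjusted p under 0.05 and a log2 fold-change beyond 0.5 in either direction. Of all tested peaks 1.74% were called higher and 3.49% lower. Since this contrast chose the cluster, nothing is read from these counts or from the medians that follow. The median log2 fold-change of the 30 peaks past a 3′ end was 0.68 and all 30 were above 0, against a median of -0.02 for 15462 peaks placed so at other genes. Peaks of the chosen interval, such as P10 and P11, are among the 30. At the 37 start peaks it was 0.08, against 0.07 for 17867 start peaks of other genes. The largest values after P12 were P11 (1.71), P53 at the Hist1h1d end (1.69), P75 at the start of Hist1h1t (1.62) and P10 (1.62). P53 had 56.2, 65.8 and 60.9 in LPS and 209, 166 and 214 in LPS + (+)-JQ1, and 109, 104 and 107 in Unstimulated. The 1 lower peak was P35 in the body of Hist1h4i, with 307, 332 and 284 in LPS and 212, 211 and 209 in LPS + (+)-JQ1.

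P75 was weak, with 5.96, 11.1 and 13.3 in LPS and 31.3, 19.2 and 40.3 in LPS + (+)-JQ1. P30, the broad peak of 3560 bases past Hist1h4n, had 91.2, 139 and 96.4 in LPS and 253, 257 and 288 in LPS + (+)-JQ1. The interaction of LPS and (+)-JQ1 called 8 Hist1 peaks higher and 2 lower, against 0.649% and 3.19% of all peaks. This is also a description, and nothing is read from its counts. Higher were P74, P75, P81, P53 and P71 with the largest values (1.08 to 2.91), and lower were P91 of Hist1h4a (-0.66) and P70 of Hist1h2ac and Hist1h2bc (-0.64). None of the interval's 7 peaks was among the 10 called, and P12 had 0.69 ± 0.31. Without replicate 1, 2 Hist1 peaks were called, without replicate 2, 0 (27 at an unadjusted p under 0.05), and without replicate 3, 2 higher and 8 lower. Over all peaks the number called went from 7463 to 1055, 116 and 10829 in the same order. Scaling moved the split, to 17 higher and 0 lower with total counts, 7 and 0 with loess offsets, 7 and 4 with the size factors of DESeq2 and 7 and 7 with DESeq2.

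**Figure D3:**
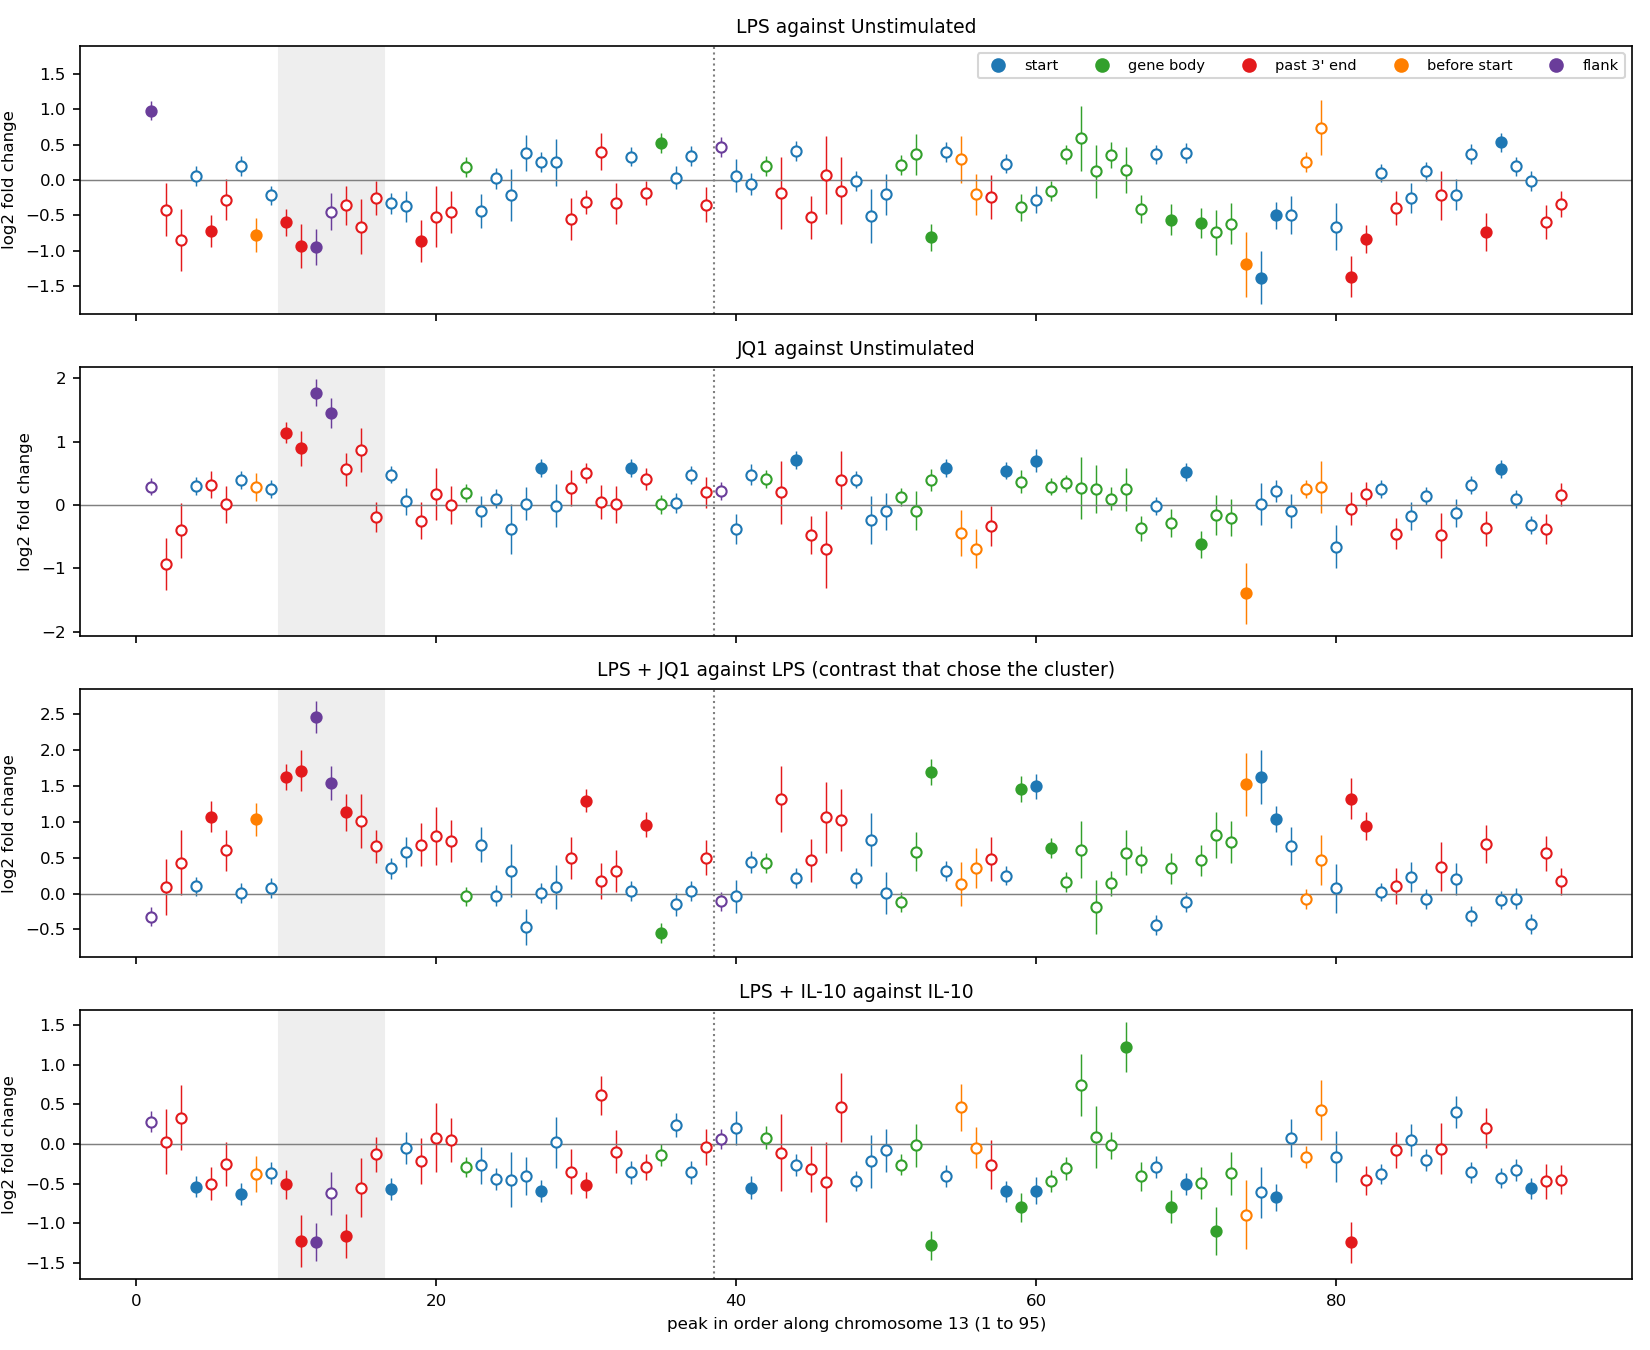
Log2 fold-change (vertical axes, with SE) of the 95 Hist1 peaks in order along the chromosome (horizontal axis) in 4 comparisons, colored by position relative to genes. Filled points were called, the grey band marks P10 to P16 and the dotted line separates the 2 stretches. P10 to P13 were called higher with (+)-JQ1 in cells without LPS, and P10, P11, P12 and P14 lower in LPS + IL-10 against IL-10.

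LPS against Unstimulated called 3 Hist1 peaks higher and 15 lower, where 11.7% of all peaks were higher and 10.2% lower. Lower accessibility was found mostly outside of starts, at 13 of 58 peaks that were not at a start and 2 of 37 that were. At other genes 3.3% of start peaks and 14.4% of peaks past ends were lower, so this split is not particular to the cluster. The median log2 fold-change was -0.41 past 3′ ends, against -0.13 for peaks past the ends of other genes, and 0.03 at starts against 0.23. P75 of Hist1h1t fell most (by 1.38 ± 0.38 on the log2 scale, adjusted p = 0.0034, edgeR), from 26.1, 30.6 and 21.3 to 5.96, 11.1 and 13.3. P81, past the linker histone gene Hist1h1c, fell by 1.37 ± 0.29 (adjusted p = 0.00013), from 47.2, 38.7 and 47.8 to 12.8, 20.4 and 18.8. Neither pair of groups overlapped. P74, between Hist1h2bc and Hist1h1t, fell by 1.19 ± 0.46 (adjusted p = 0.044), P12 by 0.95 ± 0.25 (adjusted p = 0.0023) and P11 by 0.94 ± 0.31 (adjusted p = 0.016), and the LPS libraries are also part of the contrast that chose P12.

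The 3 peaks that rose with LPS were P01, P91 and P35. P01, at the outer edge of the first stretch, rose by 0.98 ± 0.14 (adjusted p = 5.6e-09), from 243, 320 and 364 to 589, 564 and 687. P91 of Hist1h4a rose by 0.53 ± 0.14 (adjusted p = 0.0019), from 522, 616 and 716 to 1006, 835 and 833, and P35 in Hist1h4i by 0.52 ± 0.14 (adjusted p = 0.0036). The Unstimulated libraries set the scale of this comparison. With total counts in place of TMM, 1 was higher and 32 lower and the median of all peaks moved from -0.03 to -0.26. The Hist1 count fell to 5 without replicate 1, whose Unstimulated library was the shallowest, and to 8 without replicate 2. The count over all peaks fell from 42592 to 28992 and 25010.

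(+)-JQ1 against Unstimulated called 12 Hist1 peaks higher and 2 lower, against 7.85% and 3.15% of all peaks. Apart from the 4 peaks of the interval, the other 8 were start peaks, and start peaks as a whole rose in this comparison, with 36.8% of those at other genes and 21.6% of those in the cluster called higher. The median at starts was 0.14 in the cluster and 0.3 at other genes. P44, shared by Hist1h2bh and Hist1h3f, rose most of these (0.71 ± 0.14, adjusted p = 7.1e-05), from 256, 377 and 402 to 566, 622 and 513. P74 fell by 1.39 ± 0.48 (adjusted p = 0.039) and P71, in the body of Hist1h2bc, by 0.62 ± 0.21 (adjusted p = 0.041), and neither call held in DESeq2 (adjusted p = 0.056 and 0.068). Of the 51 peaks outside the interval and not at a start, 0 were called higher and 2 lower by edgeR. Over all 95 Hist1 peaks, the split was 3 higher and 10 lower with total counts, 5 and 2 with loess offsets, 16 and 1 with the size factors of DESeq2 and 16 and 0 with DESeq2. Without replicate 2, 6 of the 95 were called, while the number over all peaks went from 21372 to 5442.

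IL-10 against Unstimulated called 16 Hist1 peaks higher and 0 lower, where 5.16% of all peaks were higher and 3.5% lower. At an unadjusted p under 0.05, edgeR had 37 higher and 1 lower, and DESeq2 called 19 higher and 0 lower. Of the 16, 13 were start peaks, and the median at starts was 0.43, against 0.24 at other genes, of which 12.0% were called higher. The 7 peaks between Hist1h4j and Hist1h4k had a median of 0.09. P89 of Hist1h4b rose most (0.72 ± 0.14, adjusted p = 0.00016), from 246, 271 and 382 to 501, 507 and 477. P58, shared by Hist1h2bf and Hist1h2ad, rose by 0.67 ± 0.13 (adjusted p = 0.0003), P59 in Hist1h3d by 0.63 ± 0.18 (adjusted p = 0.012), P54 of Hist1h3e by 0.61 ± 0.14 (adjusted p = 0.0022) and P68 of Hist1h2be by 0.6 ± 0.14 (adjusted p = 0.0019). The number of calls moved with the scale and with the replicate left out. For Hist1 peaks it was 1 with total counts, 0 with loess offsets (13 at an unadjusted p under 0.05), 5 without replicate 1, 0 without replicate 2 (30 at an unadjusted p under 0.05) and 28 without replicate 3. Over all peaks it went from 16814 to 19122, 6089, 6351, 2355 and 22776 in the same order. Other than with total counts, the Hist1 number thus moved in the same direction as that of all peaks.

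**Figure D4:**
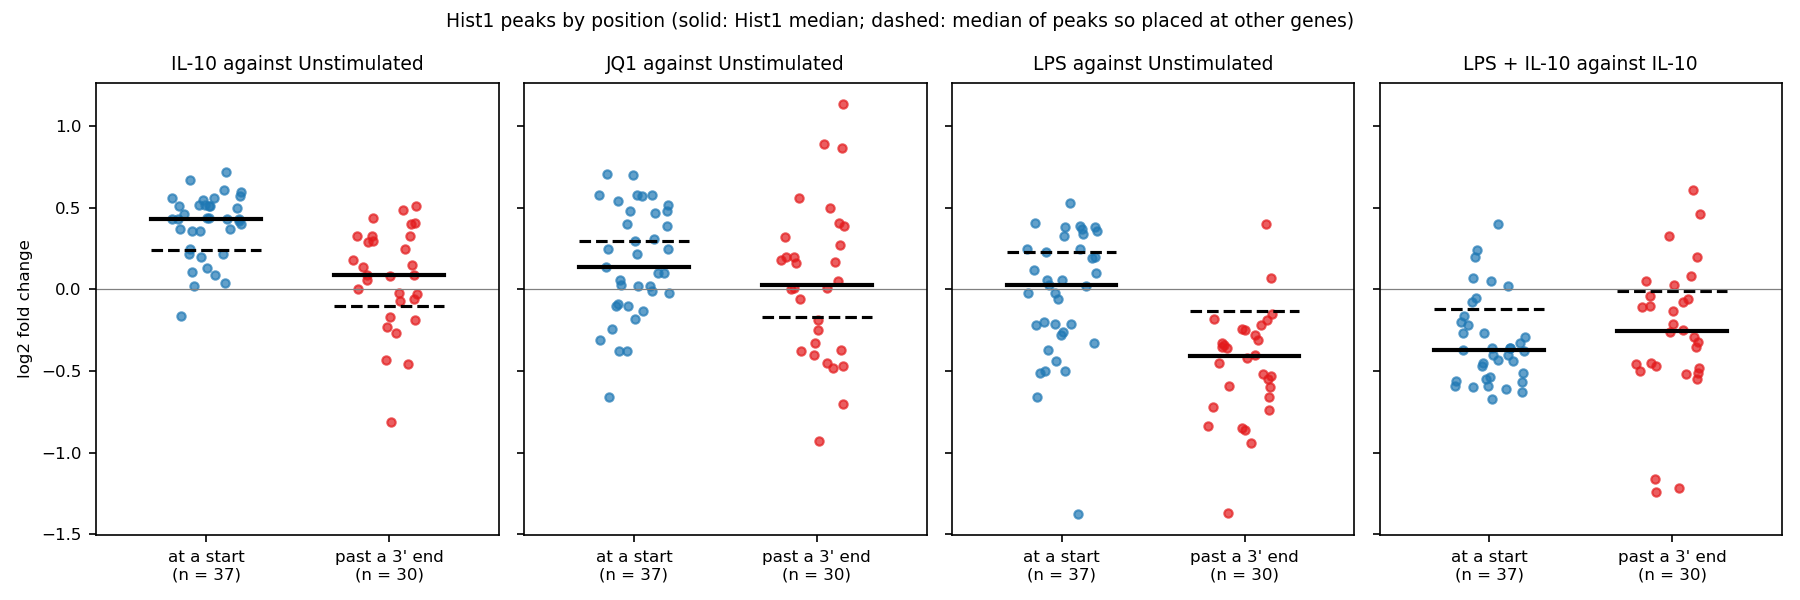
Log2 fold-change (vertical axis) of the 37 Hist1 start peaks and the 30 peaks past a 3′ end (horizontal axis) in 4 comparisons. Points are peaks, solid lines their medians and dashed lines the medians of peaks placed so at other genes. In LPS + IL-10 against IL-10 both Hist1 medians (-0.37 and -0.25) are below the dashed lines (-0.12 and -0.01), and in IL-10 against Unstimulated both are above.

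In cells given IL-10, Hist1 peaks fell with LPS, at starts and outside of them. LPS + IL-10 against IL-10, which shares no library with the contrast that chose the cluster, called 20 Hist1 peaks lower and 1 higher, against 6.47% and 8.93% of all peaks. Start peaks made up 10 of the 20, and 27.0% of the cluster's start peaks were called lower against 4.7% of those at other genes. The largest falls included peaks at 2 linker histone genes. P53 at the Hist1h1d end fell by 1.28 ± 0.18 (adjusted p = 5.4e-09), from 155, 166 and 141 to 63.1, 59.1 and 67.3, and P81 past Hist1h1c by 1.24 ± 0.26 (adjusted p = 0.00015), from 65.6, 55.0 and 60.1 to 20.7, 24.7 and 30.7. In the interval, P12 fell by 1.24 ± 0.24 (adjusted p = 4.1e-05), P11 by 1.22 ± 0.33 (adjusted p = 0.004) and P14 by 1.16 ± 0.28 (adjusted p = 0.0011), from 34.6, 44.2 and 57.5 to 18.8, 26.9 and 16.2.

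The 1 peak that rose was P66, in the annotated body of Hist1h2be, with 16.4, 12.6 and 25.3 in IL-10 and 49.9, 43.0 and 34.9 in LPS + IL-10 (1.22 ± 0.31, adjusted p = 0.0019). Summed over the 37 start peaks, counts were 13378, 12774 and 13196 in IL-10 and 10182, 10630 and 8921 in LPS + IL-10, and the groups did not overlap. The class sums were lower in LPS + IL-10 with no overlap of the groups, from 885 to 691 for H1, 5535 to 3932 for H2A, 6858 to 4992 for H2B, 3902 to 3014 for H3 and 3019 to 2358 for H4, as means of 3 libraries. Shared peaks count in each of their classes, so the class falls are not separate. Most H2A and H2B peaks are shared, and P04, P44, P83 and P86 count for H3 as well as for H2A or H2B. P92, which lies over Hist1h3a and has a mean of 485 over the 18 libraries, counts for both H1 and H3. Without replicate 3 the number of called peaks was 9, and with the 3 other scalings it was 16 to 21.

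LPS + IL-10 against LPS called 5 Hist1 peaks higher and 0 lower, against 4.26% and 4.51% of all peaks, where 5 of 95 is a share near the background. At an unadjusted p under 0.05, edgeR had 13 higher and 5 lower, and DESeq2 called 3 higher and 0 lower. The 5 were P66 in Hist1h2be (0.88 ± 0.3, adjusted p = 0.045), P90 past Hist1h4a (0.87 ± 0.27, adjusted p = 0.021), P77 of Hist1h4c (0.82 ± 0.26, adjusted p = 0.028), P88, also at the start of Hist1h4b (0.7 ± 0.21, adjusted p = 0.017) and P18 of Hist1h4k (0.68 ± 0.21, adjusted p = 0.022), and none had more than 132 normalized counts in a library. Without replicate 1 no Hist1 peak was called by edgeR (15 at an unadjusted p under 0.05), and 2 were called without replicate 2 or replicate 3. Over all peaks the number called went from 17043 to 12057 without replicate 1.

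The response to LPS with IL-10 was set against that without it by the interaction of LPS and IL-10. It called 0 Hist1 peaks higher and 15 lower, against 2.01% and 5.9% of all peaks. At an unadjusted p under 0.05, edgeR had 3 higher and 27 lower, and DESeq2 called 0 higher and 16 lower. Start peaks made up 12 of the 15, or 32.4% of the cluster's start peaks, against 27.4% of those at other genes. P91 of Hist1h4a had -0.96 ± 0.19 (adjusted p = 0.00035), with 522, 616 and 716 in Unstimulated, 1006, 835 and 833 in LPS, 889, 899 and 957 in IL-10 and 757, 703 and 579 in LPS + IL-10. P70 of Hist1h2ac and Hist1h2bc had -0.9 ± 0.2 (adjusted p = 0.0011), with 483, 594 and 850 in Unstimulated, 821, 888 and 810 in LPS, 967, 961 and 947 in IL-10 and 685, 772 and 561 in LPS + IL-10. P27 (-0.84), P58 (-0.83) and P07 (-0.82), each shared by an H2A and an H2B gene, followed. No Hist1 peak was called with loess offsets (15 at an unadjusted p under 0.05) or without replicate 2 (17), 4 were called without replicate 1, and with total counts 1 was higher and 6 lower. Over all peaks the number called went from 15361 to 7935, 1738, 7084 and 17359 in the same order.

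LPS + (+)-JQ1 against (+)-JQ1, which shares the LPS + (+)-JQ1 libraries with the contrast that chose the cluster, called 5 Hist1 peaks higher and 0 lower, against 5.69% and 3.58% of all peaks. At an unadjusted p under 0.05, edgeR had 19 higher and 3 lower, and DESeq2 called 2 higher and 0 lower. P46 past Hist1h3f (1.83 ± 0.55, adjusted p = 0.016) and P74 (1.72 ± 0.46, adjusted p = 0.0058) had at most 22.3 and 28.8 normalized counts in a library and no adjusted p in DESeq2. P52 in Hist1h1d rose by 1.02 ± 0.29 (adjusted p = 0.0089), P59 in Hist1h3d by 0.68 ± 0.17 (adjusted p = 0.0028) and P60 of Hist1h4d by 0.52 ± 0.16 (adjusted p = 0.026). P59 had 105, 100 and 116 in (+)-JQ1 and 176, 153 and 188 in LPS + (+)-JQ1. The count was 2 without replicate 2 and 2 without replicate 3.

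Other genes that share a role or a place with the cluster were measured over the same groups. The 14 replication-dependent histone genes of other chromosomes (names starting with Hist2h, Hist3h or Hist4h) had 27 peaks, of which 4 rose and 3 fell with LPS, where 11.7% and 10.2% of all peaks did. Of the 27, 5 rose and 1 fell with (+)-JQ1 and 4 rose with IL-10 alone. In LPS + IL-10 against IL-10, 2 were higher and 3 lower, with a median of -0.15, where 8.93% and 6.47% of all peaks were. The shares of all peaks called in each comparison apply to the lists that follow as well. The largest LPS changes were near Hist2h2bb, at a peak that rose by 1.38 ± 0.14 (adjusted p = 3.1e-15), and near Hist2h2ab, Hist2h2ac and Hist2h2be, at a peak that fell by 1.01 ± 0.2 (adjusted p = 3.1e-05). The 11 replication-independent histone genes, which supply variants outside of S phase, had 70 peaks. Of these 9 rose and 5 fell with LPS, the highest at the start of H3f3b (1.17 ± 0.16, adjusted p = 2.6e-09), and 4 were higher and 2 lower in LPS + IL-10 against IL-10, with a median of 0.06.

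Of 17 genes for histone transcription and mRNA processing, 16 were in the annotation, with 123 peaks. LPS raised 11 and lowered 4, and a peak upstream of the Pou2f1 3′ end rose most (2.49 ± 0.27, adjusted p = 5.9e-13). At their 22 start peaks, (+)-JQ1 alone raised 14 and lowered 0, against 36.8% higher at other genes. The 123 neighboring genes start between the first Hist1 gene and the end of the second stretch. They include genes in the gap between the stretches, such as Btn1a1, and not only genes next to a Hist1 gene. At 29 of the 123 there were 78 peaks, of which LPS raised 20 and lowered 3, against 11.7% and 10.2% of all peaks. Their median was 0.19 where the Hist1 peaks had -0.21. In (+)-JQ1 against Unstimulated 6 of the 78 rose and 0 fell, and in LPS + IL-10 against IL-10 10 rose and 2 fell, with medians of -0.14 and 0.09. The difference between these lists and the Hist1 peaks was not tested.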

How the data were processed

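ATAC-seq was measured in 18 libraries of cells from 3 mice, 3 libraries in each of 6 groups. The authors aligned reads to mm9 with Bowtie2 within PEPATAC, kept uniquely mapped reads, called peaks with MACS2 per library and split the union into promoter and distal peaks with ChIPseeker, and they deposited raw read counts per peak. The counting tool is not given in the sources used here. The 6 columns that match no sample were not used. Libraries held 12020526 to 25908198 counts.

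Promoter and distal peaks were joined and fitted together by edgeR 4.0.16 (R 4.3.3, quasi-likelihood, TMM, filterByExpr, Benjamini-Hochberg adjustment over 194230 peaks) in one model of the 18 libraries without a block. A peak was called at an adjusted p under 0.05 and a log2 fold-change beyond 0.5. Each SE of an edgeR log2 fold-change was derived from the test, as its absolute value divided by the square root of the F statistic. DESeq2 1.42.0, limma 3.58.1 loess offsets, total counts, no filter, a lane term, the replicate number as a block, each replicate left out, gene bodies alone and the promoter peaks alone were the alternatives. On simulated counts for LPS against Unstimulated, edgeR recovered 141 of 200 peaks changed by 1.5 on the log2 scale, with 6 false calls. Only these 200 peaks were changed, with no replicate or lane effect, where the real comparison called 42592 peaks. These rates therefore need not hold for the real data.

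Ratios of same-number libraries are descriptive, since no source ties a number to an animal across groups. Replicates 1 and 3 kept to 1 sequencing lane each, while replicate 2 was on one lane without LPS and on the other with it, so that its pair crossed lanes wherever LPS was compared with no LPS.

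Peaks were named if within 5 kb of Hist1h4j, among the 5 largest called changes in each direction of a comparison, or the highest or lowest main start peak of a histone class. Testis-expressed genes and genes without a peak were named too, and other lists were limited to their largest changes with LPS. The members and lists were chosen with earlier results of these data known. Sequences came from the mm9 genome.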

Additional observations from a re-analysis of the deposited data

Results flagged for a closer look

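The interaction of LPS and IL-10, the test of whether the response to LPS differed with IL-10, called 15 Hist1 peaks, all lower, against 5.9% of all peaks. Of these 12 were start peaks, where 32.4% of the cluster's start peaks were lower against 27.4% of those at other genes, a share near the background. The 5 with the largest values were P91 of Hist1h4a (-0.96), P70 of Hist1h2ac and Hist1h2bc (-0.9), P27 of Hist1h2an and Hist1h2bp (-0.84), P58 of Hist1h2bf and Hist1h2ad (-0.83) and P07 of Hist1h2aj and Hist1h2bm (-0.82), as log2 differences by edgeR. With loess offsets these were -0.32, -0.29, -0.29, -0.29 and -0.35, and none was called.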

How the results depend on the processing

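Numbers of called Hist1 peaks stayed within 1.5 times the reported number in 67 recomputations and moved further in 32. Named peaks kept direction and call in 763, lost the call in 119 and gained it in 2. The rise of P12, P10 and P13 with (+)-JQ1 alone held in every alternative, while the fall of P12 with LPS lost its call without replicate 2 (-0.85, adjusted p = 0.056, edgeR). The cluster was picked for a rise of P12 with (+)-JQ1, so refits of the same libraries are a description and no independent support. Other than in the interaction of LPS and (+)-JQ1, the fit with a replicate block called 17, 14, 17, 19, 6, 5, 21 and 15 peaks, in the order LPS, (+)-JQ1 and IL-10 against Unstimulated, both combinations against LPS alone, each combination against its own pretreatment, (+)-JQ1 first, and the interaction of LPS and IL-10, and in that interaction of LPS and (+)-JQ1 it called 7. The libraries share only a number. Their deviations from group means correlated at a mean of 0.00573 over 45 same-number pairs and -0.00286 over 90 others, and 9 of 18 libraries correlated best with their own number.

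With total counts 33 peaks were called for LPS against Unstimulated, 1 for IL-10 against Unstimulated, 17 for the interaction with (+)-JQ1 and 7 for that with IL-10, and the medians for (+)-JQ1 against Unstimulated (-0.11) and the interaction with IL-10 (0.15) reversed. Total counts moved the median of all peaks to -0.26, -0.37 and -0.26 for LPS, (+)-JQ1 and IL-10 against Unstimulated. With loess offsets 7 were called for (+)-JQ1 and 0 for IL-10 against Unstimulated (13 at an unadjusted p under 0.05) and 0 for the interaction with IL-10 (15). The Hist1 median for (+)-JQ1 against Unstimulated moved from 0.16 to -0.02 with loess offsets, where that of all peaks was -0.03. DESeq2 called 3 for LPS + IL-10 against LPS and 2 for LPS + (+)-JQ1 against (+)-JQ1. Peaks on gene bodies alone, which are fewer by construction, gave 6 for LPS and 7 for (+)-JQ1 against Unstimulated, 5 for LPS + (+)-JQ1 and 1 for LPS + IL-10 against LPS, 2 for LPS + (+)-JQ1 against (+)-JQ1, 13 for LPS + IL-10 against IL-10 and 6 for the interaction with (+)-JQ1. Their medians reversed for LPS against Unstimulated (0.16), LPS + IL-10 against LPS (-0.04), LPS + (+)-JQ1 against (+)-JQ1 (-0.06) and the interaction with (+)-JQ1 (-0.17), and promoter peaks alone reversed the last 2 (-0.07 and -0.13). The cause was not tested.

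Leaving out 1 replicate number gave 5 to 21 calls for LPS, 6 to 17 for (+)-JQ1 and 0 to 28 for IL-10 against Unstimulated, 15 to 18 for LPS + (+)-JQ1 and 0 to 2 for LPS + IL-10 against LPS, 2 to 5 for LPS + (+)-JQ1 against (+)-JQ1, 9 to 20 for LPS + IL-10 against IL-10, 0 to 10 for the interaction with (+)-JQ1 and 0 to 21 for that with IL-10. The number called over all peaks moved too, between 2355 and 22776 for IL-10 against Unstimulated, so these ranges are not particular to the cluster. Comparisons with Unstimulated, whose scaling factors were 1.24, 1.15 and 1.04 against 0.896 to 1.05 elsewhere, moved most with scaling, and peaks under about 30 counts have wide errors.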
